A study of Mus musculus with 8 samples.

Results

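Thyroid hormone reaches its receptors in brown fat by way of a carrier, an activating enzyme and a nuclear receptor pair, and 5 genes of that route were examined here in mice with and without Adcy3 in adipocytes. They are Dio2 (the deiodinase that turns the prohormone thyroxine into active triiodothyronine), Slc16a10 (a plasma membrane carrier of thyroid hormones and aromatic amino acids, also called MCT10), Thra and Thrb (the receptor genes) and Rxra (a retinoid X receptor, the usual partner of thyroid hormone receptors on DNA). The genes were taken by name from the 54385 Ensembl gene identifiers of the deposited count table, and all 5 of 5 were found and passed the filter on low counts that left 14553 genes for testing.

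The study measured polyadenylated RNA of brown adipose tissue from C57BL/6N mice of 20 weeks kept on chow, in 4 control libraries (WT) and 4 knockout libraries (cKO). All mice carried homozygous floxed Adcy3 alleles (Adcy3-FL/FL), Adcy3 encoding the cyclic AMP-producing enzyme adenylyl cyclase 3. WT replicates 1, 2 and 3 had no Cre (Adipoq-wt/wt), and the cKO mice carried 1 Cre allele driven by the adiponectin gene promoter (Adipoq-wt/cre), which is active in adipocytes, so that other cells of the tissue keep Adcy3. WT replicate 4 is a control by its title, but its genotype entry reads Adipoq-wt/cre. It entered as WT, and its Adcy3 level of 118 CPM (counts scaled to the size of each library) lay at the top of the control range. Fold changes, calls and the ratio of Thra to Thrb were repeated with it left out and with it moved to cKO. Correlations, levels per kilobase, overlap of the groups and marker sums were not repeated in this way. The sample labels name interscapular tissue and the design text inguinal tissue. Ucp1, the uncoupling protein that defines brown adipocytes, stood at 2233 to 4545 CPM, Zic1, a marker of the interscapular depot, at 6.19 to 14.7 CPM, and Hoxc9 and Hoxc10, markers of inguinal fat, at no more than 0.795 CPM in any library. The other white adipocyte markers listed with Hoxc9 and Hoxc10 were higher. Lep stood at 30.1 to 111 CPM, Retn at 33.5 to 61.6 CPM and Agt at 2.40 to 6.22 CPM over the libraries. Which depot was sampled was not tested.

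Libraries held 10713043 to 32437214 estimated counts, and the 5 genes 333 to 4133 counts each per library. The level of Adcy3 was 61.7 to 118 CPM over the controls and 17.95 to 25.3 CPM over the knockouts (log2 fold change -2.26 ± 0.21 (SE), edgeR, adjusted p = 0.000925), with no overlap. With WT replicate 4 moved to cKO it was -1.26 and not called (adjusted p = 0.747 by edgeR). The summed level of 14 skeletal muscle markers, none of them at 0 in every library, was between 42.3 and 8708 CPM in WT libraries and between 154 and 11098 CPM in cKO libraries, with the highest sums in WT replicate 4 and cKO replicate 1. The summed level of 8 endothelial markers was 808 CPM in WT replicate 3 and 509 to 601 CPM in the other libraries. In bulk tissue, fewer cells of a type and less RNA per cell cannot be told apart.

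Brown adipocytes burn fuel for heat, and thyroid hormone raises that capacity. Adrenergic stimulation acts through cyclic AMP to induce Dio2, which raises the hormone concentration inside the cell beyond that of the blood. The receptors sit on DNA with retinoid X receptors and recruit corepressors without hormone and coactivators with it, and Ucp1 and genes of lipid synthesis are among their known targets.

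The sequence on which the cyclic AMP link of Dio2 rests is its promoter, shown here because Adcy3 makes cyclic AMP. The 250 bases before the RefSeq start site of Dio2 lie at chr12:90739039-90739288 on the minus strand (GRCm38.p6), with the full cyclic AMP response element TGACGTCA and a TATA box (TATAAA) in capitals.
Dio2 promoter: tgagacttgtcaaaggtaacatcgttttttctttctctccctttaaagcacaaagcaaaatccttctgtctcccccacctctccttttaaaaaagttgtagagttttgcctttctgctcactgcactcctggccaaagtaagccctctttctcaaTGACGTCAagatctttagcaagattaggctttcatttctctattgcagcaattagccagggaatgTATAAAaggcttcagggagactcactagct
The response element begins 95 bases and the TATA box 30 bases before the RefSeq start site. The GENCODE model of Dio2 begins further downstream, at 90738438, so these distances hold for the RefSeq start only. Of 32851 RefSeq promoter windows of this length, 1.55% held TGACGTCA and 12.4% held TATAAA on either strand. The promoter windows of Slc16a10 (1 window), Thrb (2 windows) and Rxra (2 windows) held no TGACGTCA. The shorter core TGACG, which is also part of the full element and was present in 17.8% of windows, occurred in 1 Thrb window. The direct repeat of AGGTCA with a spacing of 4 bases, a classical thyroid hormone response element, was in none of these windows and in 0.0152% of all windows.

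Dio2 is a selenoprotein, and a UGA codon must be read as selenocysteine to make it. Its counts alone do not show how much enzyme is made. The annotated coding stretch around the catalytic codon, at chr12:90729793-90729855 on the minus strand of GRCm38 in exon 2 of 2, is shown with this codon in capitals.
Dio2 coding stretch: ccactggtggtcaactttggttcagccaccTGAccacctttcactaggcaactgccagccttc
The annotation marks 2 such codons in Dio2, at positions 130 and 263 of 266 codons before the stop.

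Dio2, on chromosome 12 (90724552 to 90738438, minus strand, ENSMUSG00000007682), held 129, 84.5, 59.8 and 129 CPM in WT replicates 1 to 4. It held 84.3, 169, 180.0 and 214 CPM in cKO replicates 1 to 4. Thus 3 of the 4 cKO libraries lay above every WT library, whereas cKO replicate 1 fell between WT replicates 2 and 3, so the groups overlapped. The means were 100.4 ± 34.1 and 162 ± 55.1 CPM (SD, n = 4 each), with a log2 fold change of 0.69 ± 0.35 (SE, 95% interval -0.12 to 1.497, edgeR adjusted p = 0.890, unadjusted p = 0.0841). On a linear scale the fitted ratio was 1.61 with a 95% interval of 0.921 to 2.82. Of all genes tested, 3.72% had a log2 fold change at least as far from 0 and 9.40% an unadjusted p at least as low.

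The Dio2 estimate depended most on WT replicate 3 and cKO replicate 1. Without cKO replicate 1 the log2 fold change was 0.91 (edgeR adjusted p = 0.527, unadjusted p = 0.00819), and without WT replicate 3 it was 0.51 (edgeR adjusted p = 0.999). cKO replicate 1 had the highest muscle sum (11098 CPM) and the lowest sum of 12 brown adipocyte markers (5498 CPM, against 5994 to 8341 CPM elsewhere), a list that includes Dio2 itself. WT replicate 3 had the highest endothelial sum, and its Adcy3 level was the lowest of the controls. Its sum of brown adipocyte markers (6699 CPM) was the highest of the controls. The part of these differences in the Dio2 values was not tested.

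**Figure D1:**
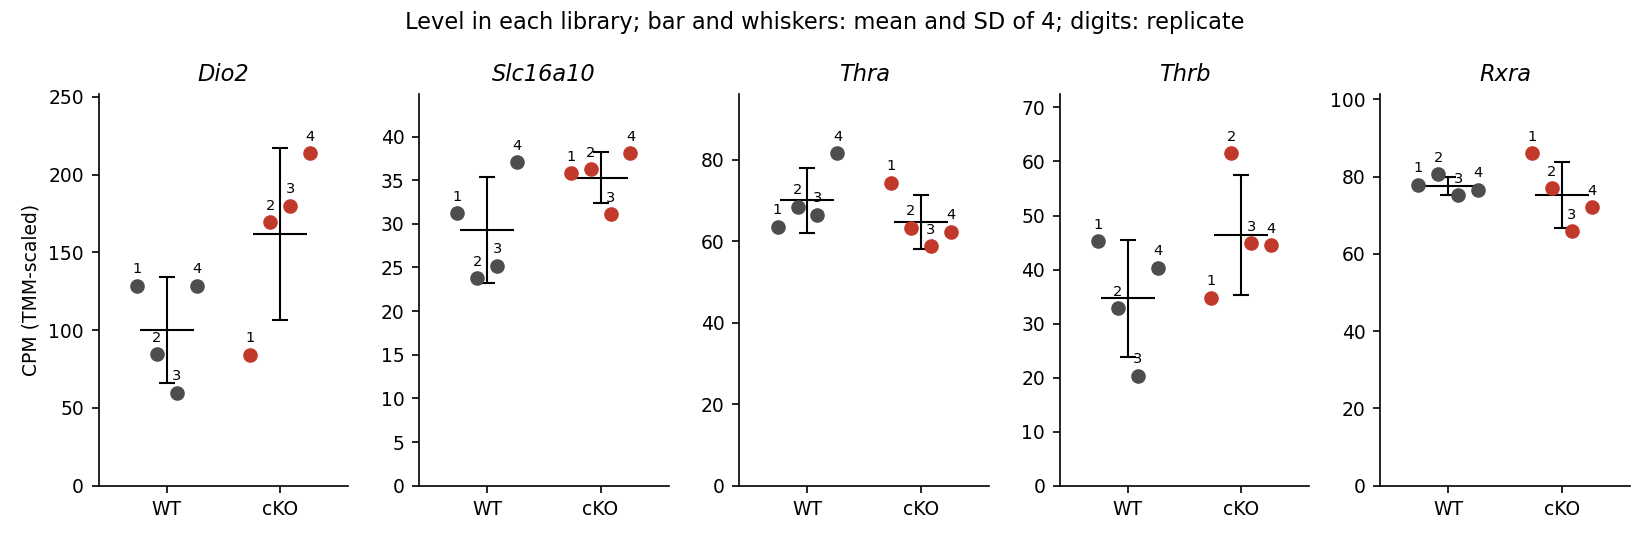
Level of each of the 5 genes in every library, in TMM-scaled CPM on the vertical axis, with WT in grey and cKO in red. Bars and whiskers are the mean and SD of 4 libraries and digits give the replicate; Dio2 in cKO replicates 2, 3 and 4 (169 to 214 CPM) lies above all controls and in cKO replicate 1 (84.3 CPM) among them.

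Slc16a10 (chromosome 10, 40033532 to 40142258, minus strand, ENSMUSG00000019838) held 31.2, 23.8, 25.2 and 37.1 CPM in WT replicates 1 to 4. The cKO libraries held 35.8, 36.2, 31.1 and 38.1 CPM. WT replicates 2 and 3 lay below every cKO library, and WT replicate 4 above all but 1. The means were 29.3 ± 6.09 and 35.3 ± 2.97 CPM (log2 fold change 0.27 ± 0.14 (SE), 95% interval -0.045 to 0.58, adjusted p = 0.890 by edgeR). Without WT replicate 4 the log2 fold change was 0.41 (edgeR adjusted p = 0.783), and with that library counted as cKO it was 0.42 (edgeR adjusted p = 0.685).

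Other carriers and deiodinases were sparse in this tissue. Of 12 listed genes 7 were tested, and edgeR called 0 of them in either direction, with 1, Slco4a1, at an unadjusted p under 0.05. Slc3a2, the heavy chain of amino acid carriers that also move thyroid hormones, held 42.5 ± 5.90 and 43.2 ± 6.55 CPM, and Ttr, a plasma binding protein, 9.85 ± 6.11 and 10.5 ± 5.67 CPM.

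Slco4a1, an organic anion carrier that transports thyroid hormones, held 5.57, 8.36, 4.07 and 7.25 CPM in WT replicates 1 to 4 and 8.47, 18.9, 7.81 and 11.1 CPM in cKO replicates 1 to 4. Only cKO replicate 3 fell within the control range (log2 fold change 0.87, 95% interval 0.18 to 1.56, adjusted p = 0.882 by edgeR, unadjusted p = 0.0179). The log2 fold change was 0.54 without cKO replicate 2 and 0.72 without WT replicate 3, and no call was made with any 1 library left out. It passed edgeR's test over all genes when no count filter was applied (log2 fold change 0.86, edgeR adjusted p = 0.00805), a setting that calls 0.262% of 35502 genes. The 5 listed genes that were not tested include Dio1 and Dio3, the other deiodinases, with Slco1c1, Slc17a4 and Crym, none above 0.698 CPM in any library.

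The receptor genes did not share a direction. Thra, on chromosome 11 (98740638 to 98769006, plus strand, ENSMUSG00000058756), held 63.5, 68.4, 66.5 and 81.5 CPM in WT replicates 1 to 4. The cKO libraries held 74.3, 63.3, 58.7 and 62.3 CPM. In each group a single library stood highest, WT replicate 4 and cKO replicate 1, and these are the libraries with the highest muscle sums. The means were 70.0 ± 7.97 and 64.7 ± 6.73 CPM, and the log2 fold change was -0.11 ± 0.12 (SE, 95% interval -0.37 to 0.14, adjusted p = 0.927 by edgeR). It was -0.023 without WT replicate 4 and 0.047 with that library moved to cKO, so its sign rests on that label.

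As a description over 8 libraries, Thra and the mean log2 CPM of the muscle markers had a Pearson r of 0.69 and a Spearman rho of 0.55. Without the 2 libraries farthest from the median muscle level r was 0.63. These were the lowest in muscle, WT replicate 1 and cKO replicate 3. WT replicate 4 and cKO replicate 1, highest for both Thra and muscle, stayed in, and r without them was not computed. After the group means were subtracted, with WT replicate 4 counted as WT, r was 0.88. The relation is 1 of 25 computed, and the part of muscle RNA in the Thra values was not tested.

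Thra makes a hormone-binding receptor and, by alternative splicing, a form that does not bind hormone, and counts per gene do not separate them. The last exon of the non-binding form lies over the 3′ end of Nr1d1, a clock repressor gene on the opposite strand, and 5.17% of the 31-base sequences of Thra also occur in Nr1d1. Of 9 annotated Thra transcripts, 2 overlap Nr1d1 exons, by up to 263 bases. Nr1d1 held 139 ± 11.1 CPM in WT, against 130 ± 26.7 CPM in cKO, with a log2 fold change of -0.095 (adjusted p = 0.958 by edgeR). The strand setting of the counting is not given in the sources used here, so reads of this overlap cannot be assigned with certainty.

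Thrb, on chromosome 14 (17660261 to 18038090, plus strand, ENSMUSG00000021779), held 45.3, 32.8, 20.3 and 40.3 CPM in WT replicates 1 to 4. The cKO libraries held 34.8, 61.5, 44.9 and 44.5 CPM. The lowest library was WT replicate 3 and the highest cKO replicate 2, and the other 6 lay between 32.8 and 45.3 CPM in both groups. The means were 34.7 ± 10.9 and 46.4 ± 11.1 CPM (log2 fold change 0.42 ± 0.26 (SE), 95% interval -0.16 to 1.00, adjusted p = 0.895 by edgeR). The log2 fold change was 0.23 without WT replicate 3 and 0.25 without cKO replicate 2. WT replicate 3 is also the library with the highest endothelial sum, whose part in the Thrb value was not tested.

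Thra and Thrb are paralogs, and their most alike coding stretches of 60 bases differ at 4 bases, given in capitals. They are shown to make plain how far the counts of the receptors could mix. The Thra stretch covers bases 721 to 780 of the coding sequence of transcript Thra-201 and the Thrb stretch bases 925 to 984 of Thrb-202, each across an exon junction.
Thra coding stretch: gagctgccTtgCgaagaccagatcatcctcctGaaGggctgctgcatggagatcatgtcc
Thrb coding stretch: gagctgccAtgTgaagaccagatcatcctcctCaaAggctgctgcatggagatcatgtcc
The longest run of identical bases in these coding sequences is 26 bases, and Thra shares no 31-base sequence with Thrb. Of the 31-base sequences of the other genes, Thrb shared 0.149%, Slc16a10 1.20%, Dio2 1.21% and Rxra 0 with any other gene. The overlapping transcript that Dio2 shares them with, Gm26512 on the opposite strand, held 0.854 ± 0.291 CPM in WT, against 0.638 ± 0.324 CPM in cKO.

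Within a library, the ratio of Thra to Thrb does not depend on the scaling between libraries. On CPM it was 1.40, 2.09, 3.27 and 2.02 in WT replicates 1 to 4 and 2.14, 1.03, 1.31 and 1.40 in cKO replicates 1 to 4. WT replicate 3 was highest and cKO replicate 2 lowest, and cKO replicate 1 stood above 3 of the 4 controls. The mean log2 ratio was 1.07 ± 0.50 in WT and 0.50 ± 0.44 in cKO, a difference of -0.57 (two-sided exact permutation p = 0.200, n = 4 each, the smallest p this design allows being 0.0286).

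Rxra, on chromosome 2 (27676440 to 27762957, plus strand, ENSMUSG00000015846), was the steadiest of the 5 genes in WT, with 78.0, 80.7, 75.2 and 76.6 CPM in replicates 1 to 4. The cKO libraries held 86.0, 77.0, 65.8 and 72.1 CPM and so lay on both sides of the control range. The means were 77.6 ± 2.31 and 75.2 ± 8.53 CPM (log2 fold change -0.04 ± 0.11 (SE), 95% interval -0.28 to 0.19, adjusted p = 0.976 by edgeR). The sign turned without cKO replicate 3 (log2 fold change 0.014).

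Over the 5 genes, edgeR called 0 at an adjusted p of 0.05, where it called 0.0687% of all genes tested, and 0 had an unadjusted p under 0.05, where 5.60% of all genes did. DESeq2, which called 0.316% of the same genes, limma-voom (0.0687%) and limma-voom with quality weights (0.0893%) also called 0 of the 5. The groups overlapped for all 5, whereas they did not overlap for 3.50% of all genes tested. Of the 5 log2 fold changes 3 were positive and 2 negative, with a median of 0.27, beside 7532 positive of 14553 and a median of 0.01 over all genes.

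**Figure D2:**
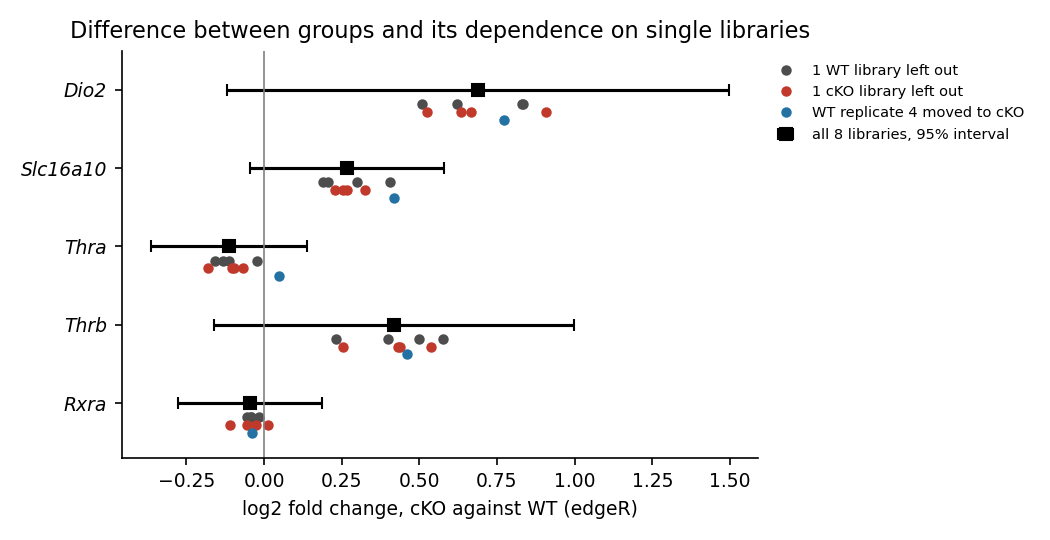
Log2 fold change of cKO against WT for each of the 5 genes on the horizontal axis, with squares and lines for the estimate and its 95% interval over 8 libraries. Dots give the estimate with 1 WT library (grey) or 1 cKO library (red) left out or with WT replicate 4 moved to cKO (blue); all 5 intervals include 0, and the dots of Dio2 run from 0.51 to 0.91.

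Levels of different genes were compared per kilobase of annotated exons, as a level and not a difference between groups. In WT, Dio2 stood at 17.3 ± 5.86, Thra at 15.2 ± 1.73 and Rxra at 14.2 ± 0.423 CPM per kb, and these neighbours overlapped. Thrb at 4.68 ± 1.47 and Slc16a10 at 3.99 ± 0.828 CPM per kb overlapped each other and lay below the other genes in every library. In cKO the order was Dio2 at 27.8 ± 9.47, Thra at 14.02 ± 1.46, Rxra at 13.8 ± 1.56 and Slc16a10 at 4.80 ± 0.404 CPM per kb after Thrb at 6.27 CPM per kb (4.69 to 8.31 over the libraries). Divided by the length of the longest annotated transcript instead, Thra stood at 28.5 CPM per kb in WT and 26.4 CPM per kb in cKO, so its place relative to Dio2 depends on which transcripts are made.

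**Figure D3:**
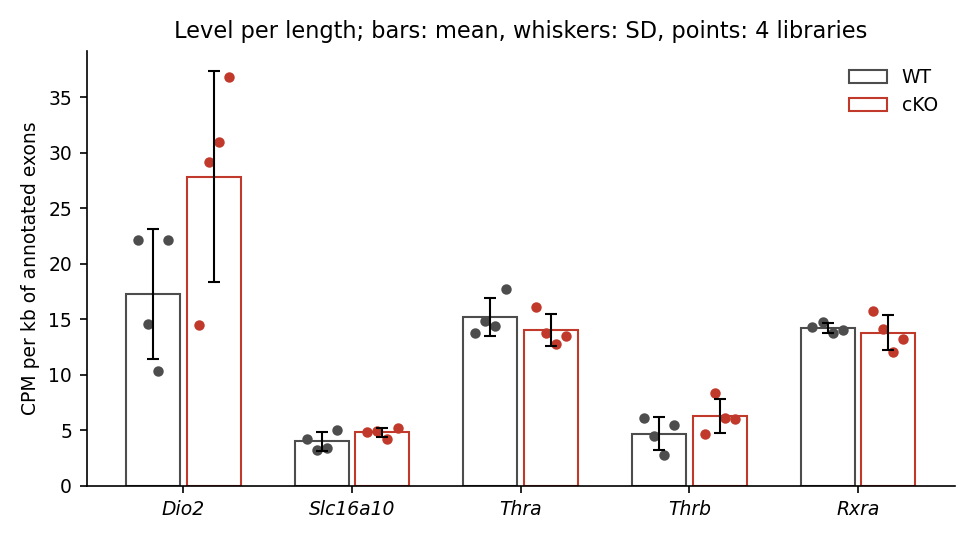
Level per length of the 5 genes, in CPM per kilobase of annotated exons, with bars for the mean, whiskers for the SD and points for 4 WT (grey) and 4 cKO (red) libraries. Dio2, Thra and Rxra lie above Thrb and Slc16a10 in every library, and Dio2 has the widest spread.

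Dio2 and Thrb varied together over the libraries. WT replicate 3 was lowest for both, and WT replicate 2 and cKO replicate 1 came next for both. As a description over 8 libraries, their log2 CPM had a Pearson r of 0.86 and a Spearman rho of 0.69, with r of 0.80 after the group means were subtracted and 0.88 without the 2 libraries farthest from the median of Thrb. The other 9 pairs of the 5 genes had Pearson r of -0.58 (Dio2 and Rxra) to 0.67 (Dio2 and Slc16a10). With Adcy3, r was -0.39 for Dio2 and -0.32 for Thrb. After the group means were subtracted these were 0.73 and 0.77, and WT replicate 3 was the lowest control for Adcy3 too. Dio2 had an r of 0.32 with Ucp1, which was 0.13 after the group means were subtracted and turned to -0.64 without the 2 libraries farthest from the median of Ucp1. In addition, cKO replicate 3 combined the second highest Dio2 level with 2434 CPM of Ucp1, within the control range.

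**Figure D4:**
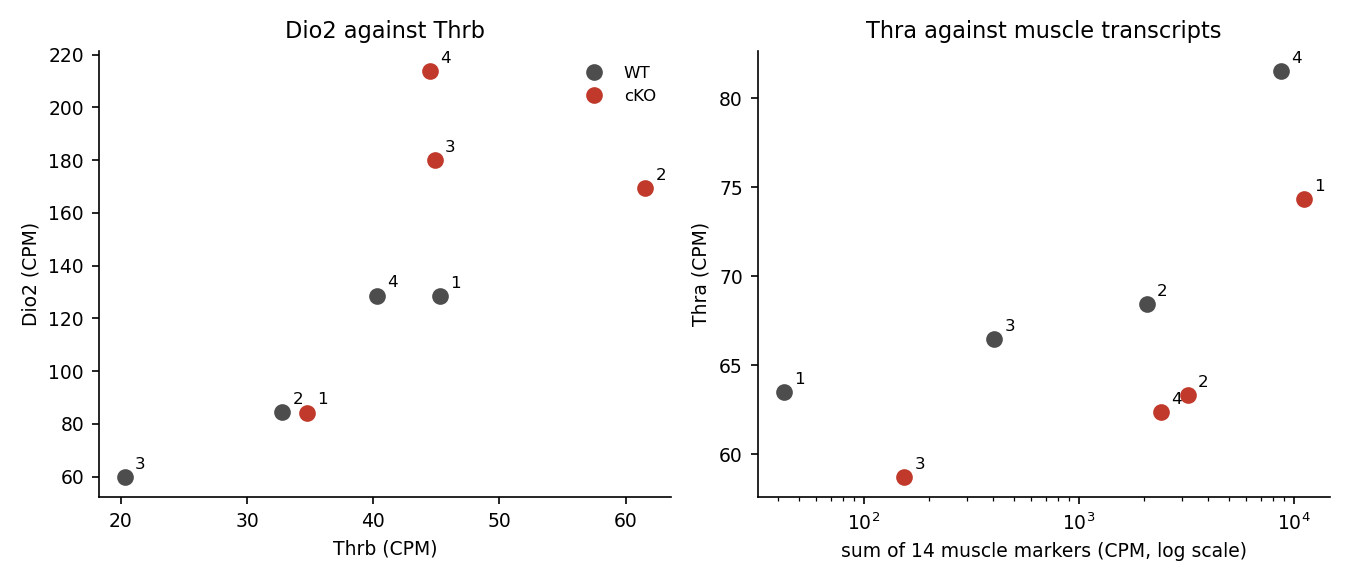
Left, Dio2 against Thrb, both in CPM; right, Thra in CPM against the summed CPM of 14 muscle markers on a log scale. Each point is a library, grey for WT and red for cKO, with its replicate number; WT replicate 3 is lowest for Dio2 and Thrb, and WT replicate 4 and cKO replicate 1 are highest for Thra and for muscle markers.

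Among 7729 other protein-coding genes with a mean of at least 10 CPM, those whose log2 CPM followed each of the 5 genes most closely over the 8 libraries were listed as a description. For Dio2 they included Zfp207, Fam49b, Fastkd5 and Gja1 (Pearson r 0.97 to 0.99), and for Thrb Dbt, Acadsb, Pdp2, Mccc1 and Zfp970 (0.98 to 0.99). Slc16a10 was followed by N4bp1, Ikzf5, Mapk14, Asb8 and Rap2a (0.93 to 0.97), Thra by Eif4b, Setd5, Pex5, Ints6 and Rabep2 (0.94 to 0.96), and Rxra by Reps1, AU040320, Btrc, Midn and Arsa (0.95 to 0.98). Spearman rho ranged from 0.81 (Ikzf5) to 0.98. They are the highest of many correlations over few libraries, and no p is attached to them.

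The other genes of the pathway were examined in 6 lists with 69 genes, of which 64 were tested. EdgeR called 0 in either direction, and DESeq2 and limma-voom called 0. By edgeR 4 of the 64 had an unadjusted p under 0.05 (3 positive, 1 negative), where 5.60% of all genes tested did. The median log2 fold change was 0.07 with 45 of 64 positive, beside a median of 0.01 with 7532 of 14553 positive over all genes. The groups did not overlap for 2 of the 64, where they did not overlap in either direction for 3.50% of all genes tested. The 2 were Rxrb and Ube2g2, both with all cKO libraries under all WT libraries, the direction of 2.27% of all genes.

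Turnover of the Dio2 enzyme is set by ubiquitin ligases and deubiquitinases, and its synthesis by the selenocysteine machinery. All 12 listed genes were tested, edgeR called 0, and the median log2 fold change was 0.07. Usp33, a deubiquitinase that removes ubiquitin from Dio2, held 40.5, 44.7, 30.2 and 41.7 CPM in WT replicates 1 to 4 and 45.1, 54.9, 39.8 and 57.5 CPM in cKO replicates 1 to 4 (log2 fold change 0.33, edgeR adjusted p = 0.884, unadjusted p = 0.0467), and only cKO replicate 3 fell among the controls. March6, a ligase of the endoplasmic reticulum that ubiquitinates Dio2, held 92.4 ± 20.4 and 99.2 ± 17.5 CPM. Sephs2, which makes the selenium donor, held 145 ± 17.7 and 154 ± 25.6 CPM, and Secisbp2l, a relative of the factor that binds selenoprotein messages, 78.9 ± 20.6 and 91.4 ± 6.74 CPM. Ube2g2, a ubiquitin-conjugating enzyme acting at the endoplasmic reticulum and named here after its values were seen, held 36.5 to 41.6 CPM in WT, against 30.9 to 35.9 CPM in cKO, with a log2 fold change of -0.21 (adjusted p = 0.886 by edgeR).

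Retinoid X receptors also pair with the receptors of fatty acids, oxysterols and vitamin A. Of 11 listed genes all were tested and edgeR called 0, with 7 positive and a median log2 fold change of 0.05. Rxrb, a second retinoid X receptor gene, held 56.5, 60.02, 63.0 and 56.7 CPM in WT replicates 1 to 4 and 48.6, 49.5, 48.1 and 48.7 CPM in cKO replicates 1 to 4. All 4 cKO libraries lay below all 4 controls, and the gene did not pass over all genes (log2 fold change -0.28, 95% interval -0.48 to -0.08, adjusted p = 0.867 by edgeR, unadjusted p = 0.0102). Pparg, the master regulator of adipocytes, held 167 ± 9.68 CPM in WT, against 192 ± 15.6 CPM in cKO, with a log2 fold change of 0.21 (adjusted p = 0.886 by edgeR). Ppara, a regulator of fatty acid oxidation, held 78.8 ± 41.4 and 83.7 ± 30.4 CPM, and the oxysterol receptor Nr1h3 59.9 ± 6.14 and 56.99 ± 9.23 CPM.

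Log2 fold changes ran from -0.13 to 0.35 over the coactivators and from -0.21 to 0.18 over the corepressors. EdgeR called 0 of 11 coactivators and 0 of 7 corepressors, 0 had an unadjusted p under 0.05, DESeq2 and limma-voom called 0, and the median log2 fold changes were 0.06 and -0.02. The acetyltransferases Crebbp and Kat2b held 58.6 ± 6.42 and 52.6 ± 11.5 CPM in WT, against 55.4 ± 4.28 and 56.7 ± 8.87 CPM in cKO, and Ppargc1b, a coactivator of mitochondrial genes, 58.6 ± 3.32 and 53.4 ± 8.06 CPM. Ppargc1a, its relative and named here after its values were seen, had the highest log2 fold change of the coactivators (0.35, 95% interval -0.15 to 0.86), at 36.5 ± 10.8 and 46.6 ± 10.2 CPM, and the groups overlapped. Ncor1, the corepressor bound by receptors without hormone, held 127 ± 6.46 and 126 ± 7.60 CPM, with a 95% interval of the log2 fold change of -0.23 to 0.20. Tbl1x, a subunit of its complex, held 64.1 ± 6.34 and 66.0 ± 7.72 CPM.

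Target genes of thyroid hormone were read as a separate list, since they bear on the hormone's action and not on its supply. Of 16 tested, edgeR, DESeq2 and limma-voom called 0. Positive log2 fold changes numbered 13 with a median of 0.12, beside 7532 of 14553 with a median of 0.01 over all genes. Ucp3, an uncoupling protein of fat and muscle, held 69.2, 71.5, 56.1 and 98.9 CPM in WT replicates 1 to 4 and 85.4, 112, 81.5 and 103 CPM in cKO replicates 1 to 4 (log2 fold change 0.37, 95% interval 0.00348 to 0.73, adjusted p = 0.884 by edgeR, unadjusted p = 0.0482). Its highest control was WT replicate 4, the control with the most muscle RNA. By contrast cKO replicate 1, with the highest muscle sum of all libraries (11098 CPM), lay below cKO replicates 2 and 4. The part of muscle in Ucp3 was not tested. Fasn, fatty acid synthase, held 25674 ± 6822 CPM in WT, against 25745 ± 3538 CPM in cKO, and Acly, which supplies its carbon, 3413 ± 1536 and 3680 ± 791 CPM. Ucp1 held 2571 ± 324 and 3167 ± 1025 CPM (log2 fold change 0.30, 95% interval -0.14 to 0.74), and without cKO replicate 2, its highest library at 4545 CPM, the log2 fold change was 0.074.

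**Figure D5:**
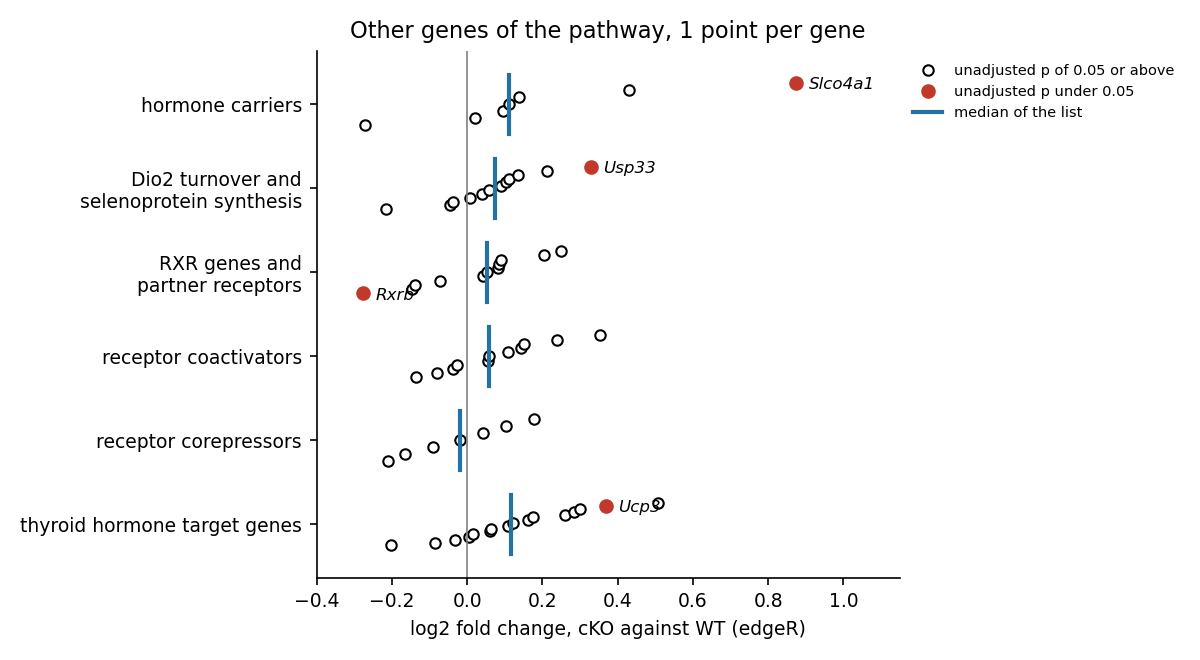
Log2 fold change of cKO against WT on the horizontal axis for the 64 tested genes of the 6 pathway lists, 1 point per gene, with the median of each list as a vertical bar. The 4 filled points (Slco4a1, Usp33, Rxrb and Ucp3) had an unadjusted p under 0.05, and none passed after adjustment over all genes.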

How the data were processed

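The authors deposited 1 table of estimated counts per Ensembl gene for 8 libraries of paired-end RNA sequencing. StringTie, Salmon, edgeR and the build GRCm38 are named in the submitters' processing notes, while versions, annotation release and strand setting are not given there. Symbols, positions and transcripts came from GENCODE M21 (GRCm38), which named 99.5% of identifiers, and promoters from RefSeq (GRCm38.p6), which had windows for 4 of the 5 genes. Groups follow the titles; whether each library came from its own animal is not stated, and p-values then reflect only the spread of these libraries, which may be technical.

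Counts were rounded, filtered with filterByExpr, TMM-scaled and compared with the robust quasi-likelihood test of edgeR 4.0.16 under R 4.3.3. Group was the only term, and p-values were adjusted by Benjamini-Hochberg over 14553 genes with a threshold of 0.05. Log2 CPM carries a prior count of 2. Alternatives used DESeq2 1.42.0, limma 3.58.1, other scalings and filters, a replicate block and left-out libraries. No 2 libraries of a group agreed within sampling noise (chi-square per degree of freedom of at least 14.5). Named genes are the 5 genes, Adcy3, overlapping genes, the 5 most alike genes for each, and from each pathway list the 3 most abundant and any with an unadjusted p under 0.05; some of these are not reported here. The genes and lists were chosen with earlier results of these data known.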

Additional observations from a re-analysis of the deposited data

Results flagged for a closer look

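In 1 of 60 groups of 4 libraries checked, covering the genes chosen from the lists and the ratio of Thra to Thrb, a single library stood apart from the others; chance alone gives about 1 in 20. It was Adcy3 in WT, where WT replicate 3 held 61.7 CPM and the other controls 112 to 118 CPM. The same library had the lowest Dio2 (59.8 CPM) and Thrb (20.3 CPM) of all 8, and without it the log2 fold changes were 0.51 for Dio2 and 0.23 for Thrb.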

How the results depend on the processing

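None of the 5 genes was called under any of 18 alternatives. Dio2 (log2 fold change 0.51 to 0.91), Thrb (0.23 to 0.58) and Slc16a10 (0.19 to 0.42) stayed positive in all of them, with adjusted p of at least 0.352, 0.452 and 0.393. Thra was 0.047 with WT replicate 4 moved to cKO and -0.18 to -0.023 with 1 library left out, and Rxra -0.11 to 0.014 with 1 library left out. The log2 ratio of Thra to Thrb differed by -0.76 to -0.35 over 11 alternatives, with a two-sided exact permutation p of 0.0857 to 0.286 in the 10 without pairing.

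Over all genes, calls numbered 46 with DESeq2, 93 without a count filter, 1 with WT replicate 4 moved to cKO and 8 to 14 with 1 library left out, against 10; the cause was not tested. Pathway genes called numbered 1, Slco4a1, without a count filter. With the replicate block edgeR called 7 genes and 0 of the 5, Adcy3 stood at -2.23 (adjusted p = 0.225 by edgeR), and the Thra to Thrb difference was -0.57, for which no p is given. With WT replicate 4 moved to cKO, Adcy3 stood at -1.26 (adjusted p = 0.747 by edgeR). Deviations of same-numbered libraries correlated at -0.46 to 0.41, and 1 of 8 libraries correlated best with its own number. The check thus gave no sign of pairing by number, but with so few libraries it cannot exclude it.

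Among other named genes, signs turned with 1 library left out for Slc3a2 (-0.068 to 0.097), Ttr (-0.34 to 0.62), Sephs2 (-0.0065 to 0.19), March6 (-0.017 to 0.24), Ppara (-0.12 to 0.36), Nr1h3 (-0.13 to 0.047), Kat2b (-0.022 to 0.23), Ncor1 (-0.046 to 0.021), Tbl1x (-0.024 to 0.12), Fasn (-0.096 to 0.18), Acly (-0.054 to 0.46) and Nr1d1 (-0.22 to 0.019). With WT replicate 4 moved they turned for Slc3a2 (-0.028), Ttr (-0.21), Ncor1 (0.040), Fasn (-0.15) and Acly (-0.18), with quality weights for Ppara (-0.13), Nr1h3 (0.013) and Fasn (-0.018), and for Fasn also with upper quartile factors (-0.0080) and without a count filter (-0.014). Dio1, Dio3, Slco1c1, Slc17a4 and Crym, at no more than 0.698 CPM in any library, were too sparse at this depth to be tested.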
